A study of Mus musculus with 23 samples.

Results

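The let-7 guide strands are 10 mature microRNAs (miRNAs): let-7a-5p, let-7b-5p, let-7c-5p, let-7d-5p, let-7e-5p, let-7f-5p, let-7g-5p, let-7i-5p, let-7j and miR-98-5p. They were picked by name from the 1915 mature miRNAs listed in each count table. All 10 were counted in 23 of 23 libraries and are among the 669 miRNAs that passed the filter on low counts. The libraries came from dissected cerebellum, cortex, hippocampus and olfactory bulb of C57BL/6 mice, either wild type (12 libraries) or Cdr1as knockout (11 libraries), whose ages the labels do not give. Cdr1as is a circular RNA of neurons that binds miR-7, and the knockout mice lack its locus. Each genotype and region had 3 libraries, except 2 for knockout hippocampus, whose replicate numbers are 2 and 3. Labels do not say which libraries came from the same mouse. Regions may therefore share animals, and the p-values reflect only how far these samples differ from each other, which may in part be technical. Small RNA libraries do not count Cdr1as, so its loss could not be checked in them.

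The let-7 miRNAs are a large, deeply conserved family that pairs with target messenger RNAs mainly through the seed, the bases near the 5′ end. They accumulate as cells leave the progenitor state and repress growth and cell-cycle genes such as Ras genes, Hmga2 and Lin28, and LIN28 in turn blocks the processing of let-7 precursors. In adult brain they are among the abundant miRNAs of neurons and glia. The guide strand is the hairpin arm that Argonaute mostly retains, and its partner, the passenger arm, is mostly degraded. Binding to Argonaute was not measured.

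The sequences show how little separates the members, which bears on how far their counts can be told apart. They are given 5′ to 3′ from RefSeq (GRCm38.p6), where 10 of 10 members were matched, with the seed, bases 2 to 8, in capitals.
let-7a-5p: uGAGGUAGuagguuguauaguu
let-7b-5p: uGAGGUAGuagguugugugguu
let-7c-5p: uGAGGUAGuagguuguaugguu
let-7d-5p: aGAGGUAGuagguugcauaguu
let-7e-5p: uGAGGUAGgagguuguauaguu
let-7f-5p: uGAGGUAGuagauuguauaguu
let-7g-5p: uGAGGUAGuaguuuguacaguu
let-7i-5p: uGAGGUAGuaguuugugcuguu
let-7j: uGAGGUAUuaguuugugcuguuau
miR-98-5p: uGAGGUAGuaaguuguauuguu

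Of the 10 members, 9 share 1 seed and let-7j has another. Counted from 1 at the 5′ end of let-7a-5p, let-7c-5p differs by A19G, let-7e-5p by U9G and let-7f-5p by G12A. The changes are A17G and A19G in let-7b-5p, U1A and U16C in let-7d-5p, G12U and U18C in let-7g-5p, and G11A and A19U in miR-98-5p. The most distant from let-7a-5p with the common seed is let-7i-5p, with G12U, A17G, U18C and A19U. Over its first 22 bases let-7j differs from let-7i-5p by G8U alone, and it has 2 more bases (AU) at its 3′ end. Of the 45 pairs of members, 5 are 1 base apart. How reads matching several members were counted is not given in the sources used here, so values of single members are uncertain to that extent, and their sum is less so.

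The members are made from 13 hairpins on 8 chromosomes (GRCm38, used here for position only, because the deposited counts rest on mm9). Mirlet7a-1, Mirlet7f-1 and Mirlet7d lie together on chromosome 13 in an exon of the long noncoding RNA 6720427I07Rik. Mirlet7b and Mirlet7c-2 lie together on chromosome 15 in an exon of Lncppara, and Mirlet7f-2 and Mir98 in an intron of Huwe1, a ubiquitin ligase gene, on chromosome X. A further 3 hairpins lie with members of the miR-99/100 and miR-125 families: Mirlet7a-2 with Mir100 and Mir125b-1 on chromosome 9, Mirlet7c-1 with Mir99a and Mir125b-2 on chromosome 16 in an intron of Mir99ahg, and Mirlet7e with Mir99b and Mir125a on chromosome 17 in an intron of Spaca6. Mirlet7g lies in an intron of Wdr82 on chromosome 9, Mirlet7i on chromosome 10 in an exon of the pseudogene D630033A02Rik, and the let-7j hairpin on chromosome 3 in no annotated gene on its strand.

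Library totals ran from 2328929 to 13070794 counts, of which the family took 153875 to 1024868. At that depth the 95% Wilson interval of a member's share of the family was at most 0.237 percentage points either side. The intervals cover counting error only, because amplified reads that carry no molecular identifier cannot be taken as separate molecules. The neuronal list (4 of 4 miRNAs) was detected in every library at 93360 to 212188 summed CPM (a library's count scaled to its total and TMM factor). The olfactory bulb and sensory epithelium list (8 miRNAs) summed to 219005 to 393987 CPM in olfactory bulb libraries. It summed to 3676 to 6803 CPM in wild type cortex against 141 to 445 CPM in knockout cortex. Tissue was not sorted, so fewer cells of a type and less RNA per cell cannot be told apart.

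The family made up 5.18% to 9.38% of all miRNA reads of a library, and let-7f-5p alone took 31.6% to 42.7% of the family. It was the first member in 23 of 23 libraries, and stood between place 5 and place 9 among all miRNAs. The 2 members that follow were let-7c-5p, second in 23 libraries with 17.3% to 27.9%, and let-7a-5p, at place 3 in 22 libraries with 11.97% to 19.8%. Together these 3 held 73.5% to 78.5% of the family's reads. The shares of let-7i-5p were 7.54% to 12.2% and those of let-7g-5p 5.46% to 8.80%. The exception was hippocampus knockout 3, where let-7i-5p (12.2%) lay above let-7a-5p (11.97%).

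The other 5 members held 7.33% to 9.20% of the family together. They were let-7b-5p (1.14% to 2.99%), let-7d-5p (1.43% to 2.64%), let-7e-5p (1.37% to 2.04%), let-7j (1.27% to 1.99%) and miR-98-5p (0.505% to 1.03%). The least abundant in 23 of 23 libraries was miR-98-5p. Ligation and amplification bias differ between small RNA sequences, so the order of 2 members in read counts is not an order in molecules.

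**Figure D1:**
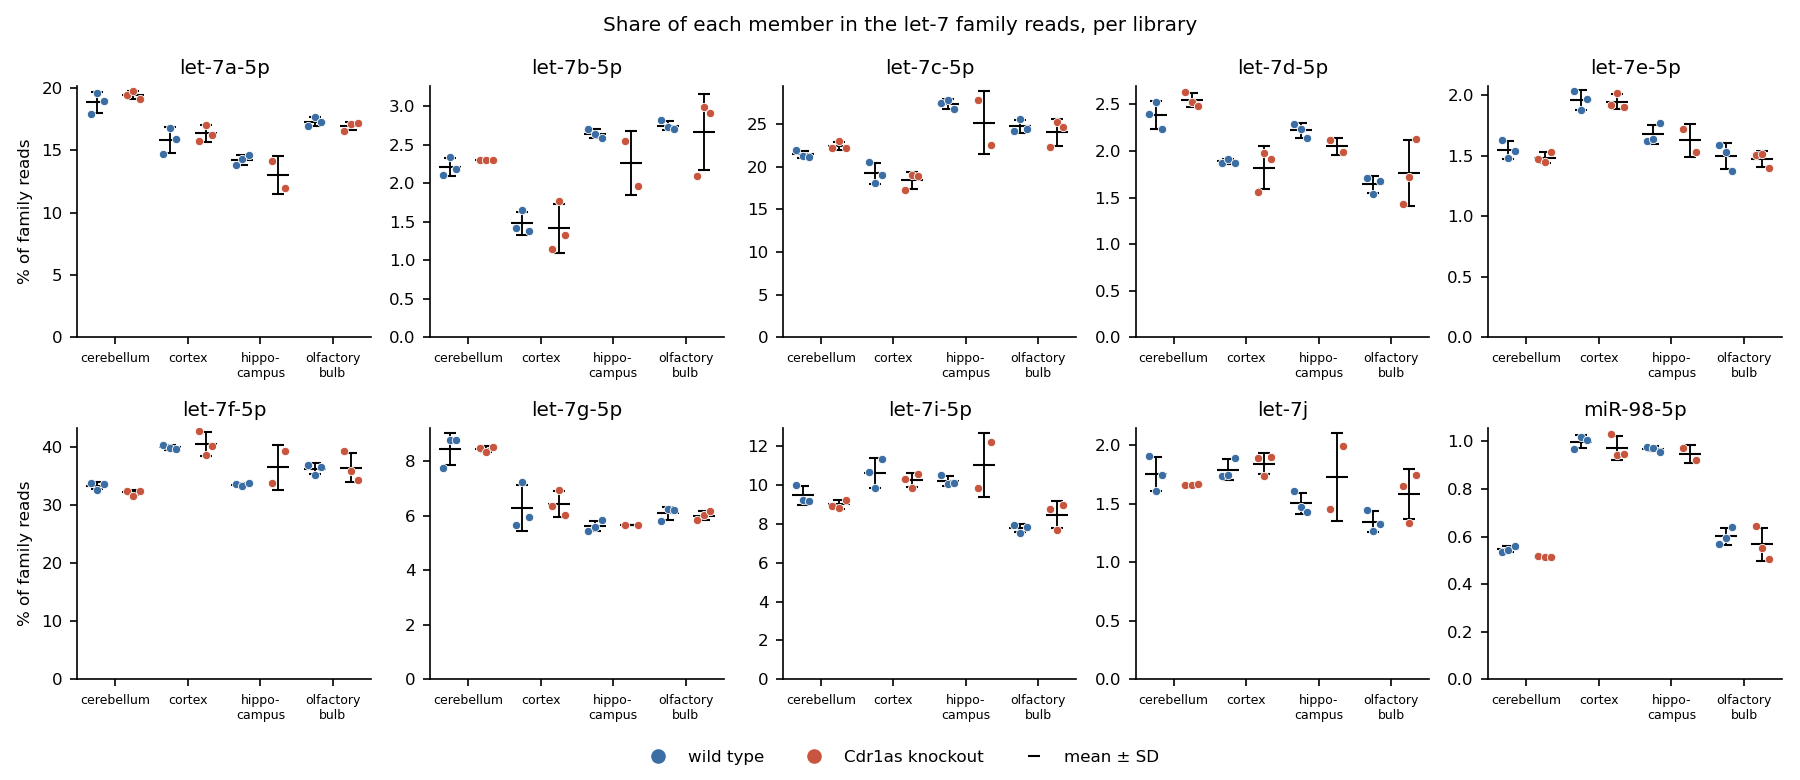
Share of each let-7 guide strand in the family's reads (%, per member) in the 23 libraries, grouped by region, with wild type and Cdr1as knockout libraries in separate colours and the group mean ± SD (n = 3, or 2 for knockout hippocampus). Let-7f-5p was first in 23 of 23 libraries, and the share of miR-98-5p was 0.942% to 1.03% in cortex, 0.922% to 0.978% in hippocampus and at most 0.643% in cerebellum and olfactory bulb.

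The wild type regions were compared to ask where the family is most abundant. The summed CPM of the family in the 3 wild type cerebellum libraries was 80209, 95155 and 101796, and in the olfactory bulb libraries 72667, 89533 and 80521. In cortex it was 58009, 53012 and 53652 and in hippocampus 59880, 60466 and 47721. On this scale the cerebellum and olfactory bulb lay above the cortex and hippocampus without overlap, while cortex and hippocampus overlapped. The log2 difference of the sum, which has no test of its own, was 0.75 for cerebellum over cortex and 0.72 for cerebellum over hippocampus.

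This order depended on the scaling, which differs between regions. As a share of all reads the wild type family held 7.62% ± 0.0946 of cerebellum, 7.33% ± 0.468 of cortex, 7.51% ± 0.667 of hippocampus and 5.78% ± 0.684 of olfactory bulb reads (SD, n = 3 each), so that the olfactory bulb was the lowest region. In the olfactory bulb miR-182-5p took 11.9% to 18.7% of the reads. The miRNA with most reads in every library was miR-181a-5p. It took 25.2% to 28.3% in olfactory bulb, 22.4% to 27.5% in cerebellum and 16.1% to 21.7% in cortex and hippocampus, both genotypes included. The part of either miRNA in the family's lower share was not tested. With library size as the only scaling the family's log2 difference was 0.06 for cerebellum over cortex and 0.35 for cortex over olfactory bulb, where TMM gave -0.56. The median of all tested miRNAs moved as well, to -0.57 and 0.74 in these pairs, against 0.02 and -0.06 with TMM. Relative to the median of all miRNAs the family was higher in cerebellum than in cortex by 0.72 with TMM and by 0.63 with library size, and lower in cortex than in olfactory bulb by 0.49 and 0.39 (differences of -0.49 and -0.39). A library's scaling factor moves the family and the median alike and largely cancels here. The nearness of the values under both scalings is therefore built in and is no separate support.

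**Figure D2:**
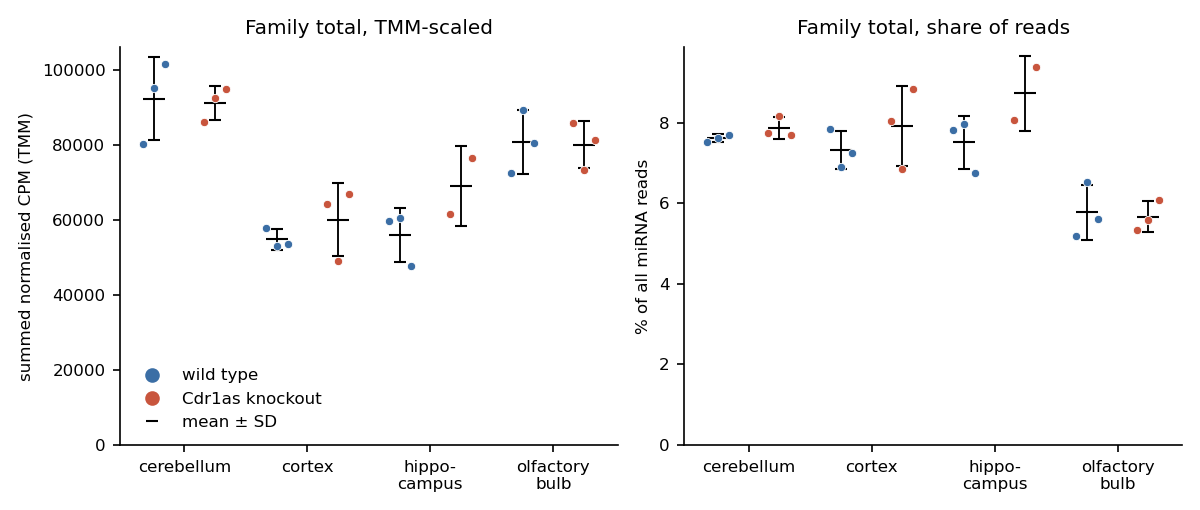
Summed level of the 10 let-7 guide strands per library, on the left in CPM with TMM factors and on the right as a percentage of all miRNA reads, by region and genotype with the group mean ± SD (n = 3, or 2 for knockout hippocampus). Wild type olfactory bulb lies at 72667 to 89533 CPM, above cortex, on the left and at 5.18% to 6.52% of reads, below the other wild type regions, on the right.

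Member by member, most of the family was higher in wild type cerebellum than in cortex or hippocampus on the TMM scale, and the exception was miR-98-5p. By the quasi-likelihood test of edgeR, adjusted over 669 miRNAs by Benjamini-Hochberg, 9 of 10 members were higher in cerebellum than in cortex, where 62.6% of all tested miRNAs passed and 31.1% were higher. The same holds for 9 of 10 against hippocampus, where 57.7% passed and 29.4% were higher. The median of the members was 0.81 and 0.66, against 0.02 and -0.06 for all tested miRNAs. With library size only, 4 members were higher and 2 lower against cortex, and 2 higher and 2 lower against hippocampus, and upper quartile scaling gave 9 higher in each.

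Against cortex, the largest differences were in let-7b-5p and let-7g-5p. Wild type cerebellum libraries held 1689, 2221 and 2229 CPM of let-7b-5p and cortex libraries 819, 874 and 739 CPM, a log2 difference of 1.34 (SE 0.14, edgeR adjusted p = 4.05e-08). For let-7g-5p the values were 6238, 8372 and 8955 CPM in cerebellum and 3278, 3850 and 3195 CPM in cortex, a log2 difference of 1.19 (SE 0.14, edgeR adjusted p = 3.34e-07). In both the groups did not overlap, and both were higher in cerebellum than in cortex with library size only too. Over hippocampus the largest differences were in let-7g-5p (1.32) and let-7a-5p (1.13). There let-7b-5p had 0.47, which changed sign with library size only. For miR-98-5p the values were 430, 517 and 571 CPM in cerebellum against 561, 540 and 541 CPM in cortex, which overlap, and the log2 difference was -0.11 (95% interval -0.44 to 0.21).

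The remaining pairs held fewer calls, near the share that passed among all miRNAs. Cerebellum against olfactory bulb had 5 of 10 members higher (55.5% of all passed, 29.1% higher). They were let-7a-5p, let-7d-5p, let-7g-5p, let-7i-5p and let-7j, and library size only gave 7 higher. Cortex against hippocampus had 2 of 10, let-7b-5p and let-7c-5p, both lower in cortex (20.0% of all passed, 8.37% lower), and library size only gave the same count. Cortex against olfactory bulb and hippocampus against olfactory bulb had 6 of 10 lower each (53.2% and 53.4% of all passed, 26.2% and 26.8% lower). With library size only those pairs turned to 7 higher and 1 lower, and to 8 higher.

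In all, 37 of 60 member tests between wild type regions passed, of which 29 passed without any single library. The 8 others each lost their call without at least 1 of the 23 libraries. They were let-7c-5p in cerebellum against hippocampus, let-7a-5p, let-7i-5p and let-7j in cerebellum against olfactory bulb, let-7d-5p and let-7f-5p in cortex against olfactory bulb, and let-7c-5p and let-7e-5p in hippocampus against olfactory bulb. Marker lists differed between regions as well. The neuronal list summed to 144126 to 173483 CPM in wild type cerebellum and 191504 to 199904 CPM in olfactory bulb, above cortex (112685 to 117803 CPM) and hippocampus (93360 to 115696 CPM) without overlap, as the family's sum did on the TMM scale. Both sums carry the same TMM factors, which differ between regions. The likeness may therefore come in part from the scaling, and the list's order with library size only is not given here. The choroid plexus list (9 miRNAs) summed to 11181 to 18761 CPM in wild type cerebellum and 2102 to 3060 CPM in cortex. The red blood cell list summed to 32109 to 47233 CPM in wild type cerebellum and to 3669 to 10231 CPM in the other wild type regions. That sum is mostly 1 miRNA, miR-486a-5p (16895 to 378072 counts in a library), while miR-451a had at most 2152 counts. The largest counts in the neuronal and choroid plexus lists were those of miR-9-5p (up to 1469782) and miR-204-5p (up to 128481). The part of these lists in the family's difference was not tested.

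The knockout region pairs share no library with the wild type pairs, but both genotypes were tested in 1 fit with a shared estimate of spread. Wild type and knockout calls are therefore not fully separate. In the knockout, 24 of 60 region tests passed the threshold. Cerebellum was higher than cortex in 7 (59.8% of all tested miRNAs passed, 29.6% higher) and higher than olfactory bulb in 3 (52.8%, 26.3% higher). Cortex was lower than hippocampus in 2 (12.7%, 5.08% lower) and lower than olfactory bulb in 4 (50.7%, 26.0% lower). Calls went both ways in cerebellum against hippocampus, with 4 higher and 1 lower (52.9%), and in hippocampus against olfactory bulb, with 1 higher and 2 lower (47.1%). With library size only the calls higher and lower in the first region were 4 and 3 for cerebellum against cortex, 2 and 4 against hippocampus and 9 and 0 against olfactory bulb. They were 0 and 2 for cortex against hippocampus, 8 and 1 for cortex against olfactory bulb and 8 and 0 for hippocampus against olfactory bulb. Of the 24, 22 were also called in wild type and had the same sign there, and 16 passed without any single library.

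Because the total depends on the scaling, each member was also compared with the summed count of the family in the same library, a scale on which a change shared by all members drops out. This scaling was chosen after seeing the data. The shares of a library sum to 100%, and let-7f-5p, let-7c-5p and let-7a-5p hold 73.5% to 78.5% of it. A fall in the share of 1 large member therefore raises others, so the members' differences on this scale are not independent. On it 28 of 60 wild type tests and 25 of 60 knockout tests passed, 22 of them in both and all 22 with the same sign. By pair, the wild type calls were 7 for cerebellum against cortex (62.0% of all tested miRNAs passed on this scale), 4 for cerebellum against hippocampus (61.7%) and 4 for cerebellum against olfactory bulb (47.5%). They were 3 for cortex against hippocampus (14.5%), 6 for cortex against olfactory bulb (54.3%) and 4 for hippocampus against olfactory bulb (54.1%). In the knockout the calls by pair were 8 (57.4%), 4 (52.5%), 2 (45.9%), 3 (10.5%), 5 (48.6%) and 3 (42.3%), in the same order. The scale takes the family's own shift out of the members and puts it into all other miRNAs. In wild type cerebellum against cortex the medians were 0.06 for the members and -0.71 for all tested miRNAs. A comparison of the 2 shares of calls is therefore largely set by the scaling, and nothing is drawn from it. In most pairs the members' share of calls lay near or below that of all miRNAs. In cortex against hippocampus it was 3 of 10, but the 3 knockout calls (let-7a-5p, let-7b-5p and let-7c-5p) were each lost without some single library (edgeR adjusted p up to 0.392, 0.155 and 0.132), and the wild type call of let-7f-5p was lost without any 1 of 14. Without the filter on low counts, 14 of the 28 wild type calls and 12 of the 25 knockout calls passed. These included every call of miR-98-5p and let-7b-5p and none of let-7e-5p, let-7f-5p and let-7j. In wild type, let-7a-5p then passed in cerebellum against hippocampus alone, let-7c-5p in cortex against hippocampus, let-7d-5p in cerebellum against olfactory bulb and let-7i-5p in cortex against olfactory bulb. Without any single library 23 and 16 calls passed.

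The least abundant member, miR-98-5p, set cortex and hippocampus apart from cerebellum and olfactory bulb. It shares the Huwe1 intron with Mirlet7f-2. Its share of the family was 0.536%, 0.543% and 0.561% in wild type cerebellum and 0.569%, 0.593% and 0.640% in olfactory bulb. In cortex it was 0.968%, 1.02% and 1.01%, and in hippocampus 0.978%, 0.973% and 0.957%. Cortex and hippocampus libraries thus all lay above cerebellum and olfactory bulb libraries.

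Relative to the family, miR-98-5p was lower in cerebellum than in cortex, with a log2 difference of -0.87 (SE 0.11, edgeR adjusted p = 5.88e-07), and than in hippocampus, at -0.83 (SE 0.11, edgeR adjusted p = 1.41e-06). It was higher than in olfactory bulb in cortex, at 0.73 (SE 0.11, edgeR adjusted p = 9.71e-06), and in hippocampus, at 0.69 (SE 0.11, edgeR adjusted p = 1.77e-05). Cerebellum against olfactory bulb and cortex against hippocampus did not pass (log2 differences -0.14 and 0.04). Knockout libraries gave -0.92, -0.88, 0.78 and 0.74 for the 4 pairs that passed in wild type, and each passed (edgeR adjusted p at most 4.23e-05). These 8 calls held without any single library and without the filter on low counts.

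Cortex was poor in let-7b-5p, which differs from let-7c-5p by A17G alone and shares Lncppara with it. The share of let-7b-5p was 1.41%, 1.65% and 1.38% in wild type cortex, against 2.11%, 2.33% and 2.19% in cerebellum. It was 2.70%, 2.64% and 2.58% in hippocampus and 2.82%, 2.73% and 2.70% in olfactory bulb. No cortex library reached the lowest library of another region.

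Relative to the family, the wild type log2 differences of let-7b-5p were -0.84 (SE 0.15, edgeR adjusted p = 0.000399) for cortex against hippocampus and -0.89 (SE 0.15, edgeR adjusted p = 5.41e-05) for cortex against olfactory bulb. Cerebellum against cortex gave 0.58 (SE 0.15, edgeR adjusted p = 0.00246). Without the filter on low counts the 3 calls passed too. In knockout libraries the same 3 differences were -0.68, -0.91 and 0.70, and each passed (edgeR adjusted p = 0.0113, 5.01e-05 and 0.000494). The knockout call against hippocampus was lost without cortex knockout 1 or hippocampus knockout 2 (edgeR adjusted p up to 0.155, with log2 differences of -0.87 to -0.48 without 1 library).

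Between let-7c-5p and let-7a-5p, which differ by A19G, the wild type hippocampus had the highest shares of the first and the lowest of the second, though not every contrast passed. The share of let-7c-5p in wild type libraries was 27.4%, 27.9% and 26.8% in hippocampus and 24.2%, 25.6% and 24.4% in olfactory bulb. It was 21.9%, 21.2% and 21.2% in cerebellum and 20.5%, 18.1% and 19.0% in cortex, so that the 4 regions did not overlap. Relative to the family, let-7c-5p was lower in cortex than in hippocampus, with a log2 difference of -0.51 (SE 0.09, edgeR adjusted p = 0.000379). It was also lower in cerebellum than in hippocampus, at -0.35 (SE 0.09, edgeR adjusted p = 0.00241), and in cortex than in olfactory bulb, at -0.37 (SE 0.09, edgeR adjusted p = 0.00219). Hippocampus against olfactory bulb (0.14) and cerebellum against cortex (0.16) did not pass.

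The share of let-7a-5p was 17.96%, 19.6% and 19.0% in wild type cerebellum and 17.0%, 17.7% and 17.3% in olfactory bulb. In cortex it was 14.7%, 16.8% and 15.9%, and in hippocampus 13.8%, 14.3% and 14.6%. Hippocampus libraries lay below those of the other 3 regions. Relative to the family, let-7a-5p was higher in cerebellum than in hippocampus by 0.40 (SE 0.09, edgeR adjusted p = 0.000428) and lower in hippocampus than in olfactory bulb, at -0.28 (SE 0.09, edgeR adjusted p = 0.0101). Cortex over hippocampus gave 0.15 (edgeR adjusted p = 0.321) and did not pass. The difference of cerebellum over cortex was 0.25 (SE 0.09, edgeR adjusted p = 0.0152), a call lost without cerebellum wild type 2 or cortex wild type 1 (edgeR adjusted p up to 0.0699).

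In knockout hippocampus the 2 libraries differed for both members. Let-7c-5p took 27.8% in replicate 2 and 22.5% in replicate 3, and let-7a-5p 14.1% and 11.97%. The knockout call of let-7c-5p in cortex against hippocampus (-0.45, edgeR adjusted p = 0.00587) was lost without hippocampus knockout 2 (-0.29, edgeR adjusted p = 0.132). That of let-7a-5p in hippocampus against olfactory bulb (-0.38, edgeR adjusted p = 0.00388) was lost without hippocampus knockout 3 (-0.26, edgeR adjusted p = 0.089).

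The share of let-7g-5p was higher in cerebellum than in the other 3 regions, and that of let-7d-5p higher than in olfactory bulb. The share of let-7g-5p was 7.78%, 8.80% and 8.80% in wild type cerebellum, and between 5.46% and 7.26% in the 9 other wild type libraries. Its differences relative to the family were 0.43 (SE 0.10, edgeR adjusted p = 0.00108) over cortex, 0.59 (SE 0.10, edgeR adjusted p = 4.29e-05) over hippocampus and 0.47 (SE 0.10, edgeR adjusted p = 0.000625) over olfactory bulb. All 3 passed in knockout too, at 0.39, 0.58 and 0.49 (edgeR adjusted p at most 0.00253), and none of the 6 was lost without a single library. Without the filter on low counts the knockout call over cortex did not pass (edgeR adjusted p = 0.0766) and the other 5 did. The share of let-7d-5p, the member that starts with A, was 2.40%, 2.53% and 2.24% in cerebellum and 1.71%, 1.54% and 1.67% in olfactory bulb, a log2 difference of 0.54 (SE 0.13, edgeR adjusted p = 0.00144). Cerebellum over cortex gave 0.34 (SE 0.13, edgeR adjusted p = 0.0263) for let-7d-5p, a call lost without any 1 of 4 libraries (cerebellum wild type 1 or 2, cortex wild type 1 or 3). Wild type cerebellum and hippocampus overlapped for it, and their difference of 0.10 did not pass (edgeR adjusted p = 0.497). Hippocampus over olfactory bulb gave 0.44 (SE 0.13, edgeR adjusted p = 0.00686) for let-7d-5p in wild type, and 0.22 (edgeR adjusted p = 0.228) in knockout, where it did not pass.

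The share of let-7i-5p was lower in wild type olfactory bulb than in the other 3 regions. Wild type shares of let-7i-5p were 7.92%, 7.54% and 7.85% in olfactory bulb, and 9.16% to 11.3% in the other 3 regions. Its differences relative to the family were 0.45 (SE 0.10, edgeR adjusted p = 0.000654) for cortex over olfactory bulb, 0.40 (SE 0.10, edgeR adjusted p = 0.00193) for hippocampus over olfactory bulb and 0.28 (SE 0.10, edgeR adjusted p = 0.0223) for cerebellum over olfactory bulb, the last lost without cerebellum wild type 1 or olfactory bulb wild type 2 (edgeR adjusted p up to 0.084). In knockout the first was 0.27 (edgeR adjusted p = 0.0264), the second 0.38 (0.00795 by edgeR) and the third 0.09, which did not pass. The first was lost without cortex knockout 1 or 3 or olfactory bulb knockout 2, and the second without hippocampus knockout 3 (edgeR adjusted p up to 0.127 and 0.195). For its near-copy let-7j, cortex over olfactory bulb gave 0.41 (SE 0.13, edgeR adjusted p = 0.00989) in wild type and 0.22 (edgeR adjusted p = 0.159) in knockout. Wild type cerebellum over olfactory bulb gave 0.38 (SE 0.13, edgeR adjusted p = 0.0187) for let-7j, a call lost without cerebellum wild type 1 or olfactory bulb wild type 2 or 3. Its share in wild type olfactory bulb (1.27% to 1.446%) overlapped that in hippocampus (1.43% to 1.60%), and their difference did not pass (0.16, edgeR adjusted p = 0.32). In knockout the let-7j share of olfactory bulb (1.34% to 1.75%) spanned that of cerebellum (1.66% to 1.67%).

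Both let-7f-5p and let-7e-5p took a larger share in cortex than in cerebellum. The share of let-7f-5p was 40.4%, 39.8% and 39.6% in wild type cortex, against 32.6% to 33.7% in cerebellum, and the difference of cerebellum over cortex was -0.26 (SE 0.08, edgeR adjusted p = 0.00889). That of let-7e-5p was -0.34 (SE 0.10, edgeR adjusted p = 0.00578), from 1.63%, 1.48% and 1.54% in cerebellum to 2.04%, 1.88% and 1.97% in cortex. In both, cerebellum and cortex did not overlap. Both passed in knockout (-0.33 and -0.39) and held without any single library, but neither passed without the filter on low counts (edgeR adjusted p = 0.226 and 0.182 in wild type). Against olfactory bulb, wild type cortex gave 0.14 for let-7f-5p (edgeR adjusted p = 0.162), which did not pass, and 0.39 (SE 0.10, edgeR adjusted p = 0.00262) for let-7e-5p. Against hippocampus it gave 0.23 for let-7e-5p (edgeR adjusted p = 0.159), which did not pass, and 0.25 (SE 0.08, edgeR adjusted p = 0.0431) for let-7f-5p, a call lost without any 1 of 14 libraries.

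**Figure D3:**
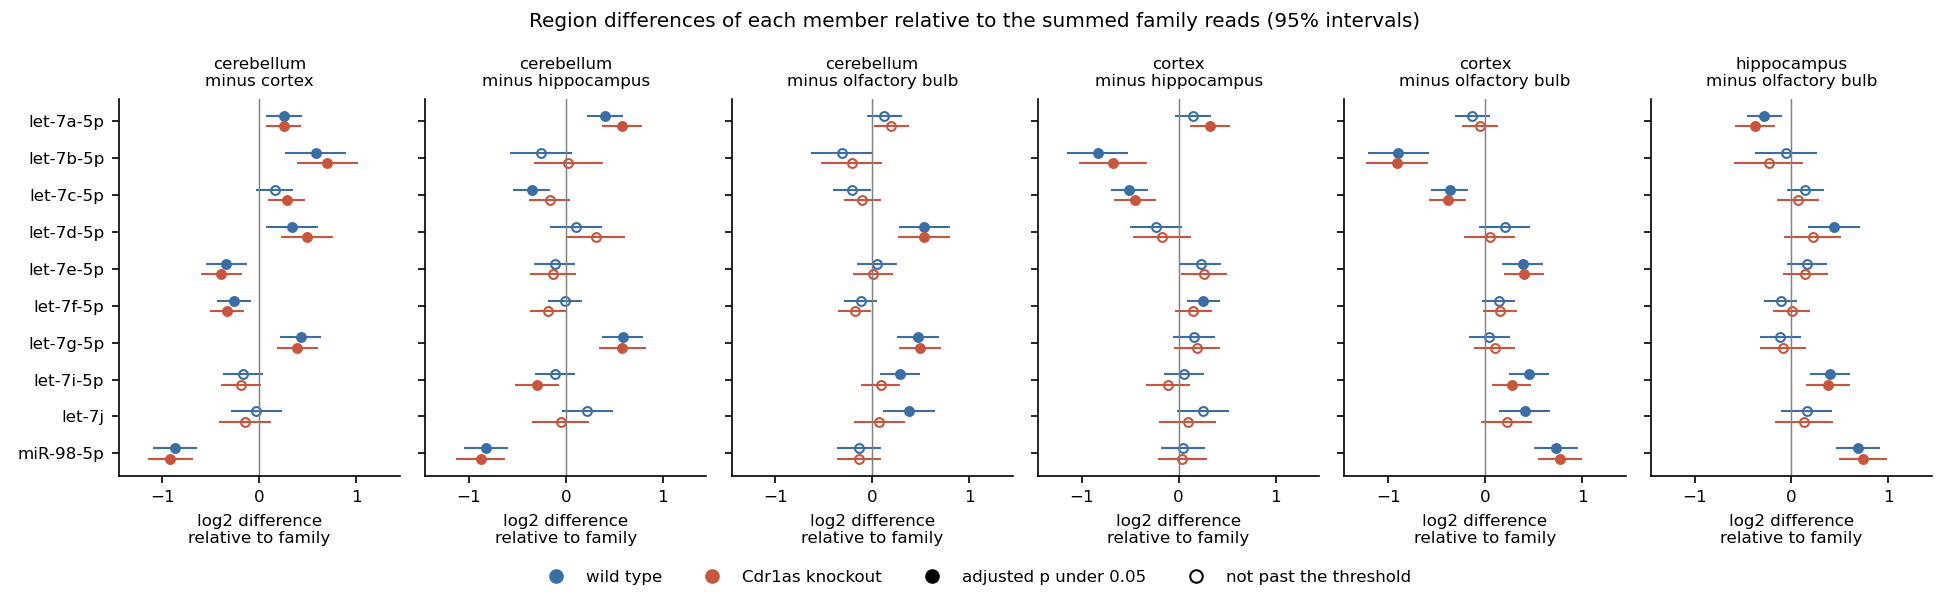
Log2 difference of each let-7 guide strand relative to the family's summed count (edgeR, library size set to the family) between pairs of regions, in wild type (12 libraries) and knockout (11 libraries). The largest differences are those of miR-98-5p and let-7b-5p, for example -0.87 in wild type and -0.92 in knockout for miR-98-5p in cerebellum against cortex.

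Likeness between members was measured as the SD, over the 23 libraries, of the log2 ratio of their counts, so that a small value means a near-constant ratio. The most alike of the 45 pairs were let-7i-5p and let-7j (0.13), then let-7e-5p and let-7f-5p (0.14), and let-7a-5p and let-7g-5p (0.14). The least alike were let-7b-5p and miR-98-5p (0.72). These libraries share depth and region between members, so the values are a description.

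A small sequence distance did not go with a constant ratio in every pair. The 5 pairs that are 1 base apart ran from 0.13 to 0.31, with a median of 0.26, against a median of 0.32 in the 10 pairs that are 2 bases apart. The medians were 0.36 and 0.37 at 3 and 4 bases (12 and 10 pairs). At 5, 6 and 7 bases they were 0.27, 0.23 and 0.27 (5, 2 and 1 pairs), so they did not rise steadily with distance. Apart from let-7i-5p and let-7j, the pairs 1 base apart were let-7b-5p with let-7c-5p (0.24), and let-7a-5p with let-7f-5p (0.26), let-7e-5p (0.30) and let-7c-5p (0.31). Pairs from 1 cluster were not the most alike either, with place 1 of 45 as the most alike. Among them, let-7b-5p and let-7c-5p had 0.24 (place 9) and let-7a-5p and let-7f-5p 0.26 (place 10). For let-7a-5p and let-7d-5p it was 0.27 (place 13), for let-7d-5p and let-7f-5p 0.35 (place 29), and for let-7f-5p and miR-98-5p 0.36 (place 32). Of these members, let-7a-5p, let-7c-5p and let-7f-5p are also made from a hairpin elsewhere.

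For let-7j, 14.1 to 19.5 counts were found per 100 counts of let-7i-5p. The wild type means were 18.5 ± 0.903 for cerebellum, 16.9 ± 0.723 for cortex, 14.7 ± 0.557 for hippocampus and 17.3 ± 0.810 for olfactory bulb (SD, n = 3 each). The hippocampus had the lowest wild type mean. In knockout the means were 18.5 ± 0.403, 17.97 ± 0.310, 15.6 ± 1.11 (n = 2) and 18.6 ± 1.08 in the same order. The 2 RNAs come from different chromosomes and differ by G8U over 22 bases, and whether reads of let-7i-5p were counted as let-7j was not tested.

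**Figure D4:**
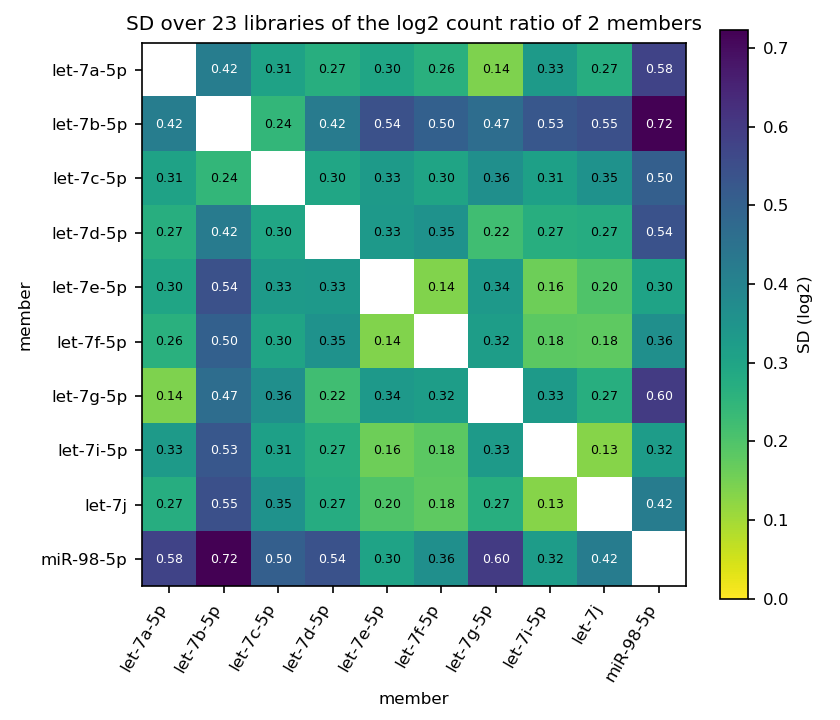
SD over 23 libraries of the log2 count ratio for each of the 45 pairs of let-7 guide strands, members on both axes, with low values meaning a near-constant ratio. Let-7i-5p with let-7j is lowest (0.13) and let-7b-5p with miR-98-5p highest (0.72).

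The knockout was compared with wild type in each region to ask which miRNAs depend on Cdr1as. No let-7 guide strand passed the test in any region. By the same edgeR test 0 of 50 member tests passed (10 members in 4 regions and in the mean of the 4 differences), with 4 at an unadjusted p under 0.05 and 0 past the threshold by DESeq2 or limma-voom. Among all 669 miRNAs the share that passed was 0.149% for cerebellum, 2.09% for cortex, 0.0% for hippocampus, 0.149% for olfactory bulb and 1.49% for the mean. The smallest adjusted p of a member was 0.679 by edgeR.

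The mean differences of the 10 members lay between 0.02 (let-7b-5p) and 0.21 (let-7j) on the log2 scale. The 95% intervals of these means lay between -0.13 and 0.41, so the data leave room for mean changes of that size. The member with most reads, let-7f-5p, had 0.13 (95% interval -0.03 to 0.30), let-7c-5p 0.05 (95% interval -0.09 to 0.20) and let-7a-5p 0.08 (95% interval -0.05 to 0.22). The summed level of the family differed by 0.10 on average, and by region the cerebellum had -0.01, the cortex 0.12, the hippocampus 0.30 and the olfactory bulb -0.01. Members' medians by region were -0.05, 0.11, 0.26 and -0.04, against -0.003, -0.02, 0.00 and 0.02 for all tested miRNAs. In single regions the members' 95% intervals lay between -0.47 and 0.38 in cerebellum and between -0.25 and 0.56 in cortex. They lay between -0.26 and 0.94 in hippocampus and between -0.42 and 0.61 in olfactory bulb.

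The genotype effect did not differ between regions past the threshold for any member (0 of 10 by edgeR's F test over the 4 regions, DESeq2 or limma-voom, 0 at an unadjusted p under 0.05 by edgeR, with 1.64% of all miRNAs past the threshold). Relative to the family's summed count 0 of 50 knockout tests passed as well (edgeR, 0 at an unadjusted p under 0.05). On that scale 0.0%, 1.94%, 0.299%, 0.0% and 1.49% of all miRNAs passed in cerebellum, cortex, hippocampus, olfactory bulb and the mean. In cortex, where the olfactory bulb list differed between genotypes, the members' differences were 0.04 to 0.18 and every one overlapped between genotypes.

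The hippocampus had the highest values. For let-7f-5p its wild type libraries held 20100, 20092 and 16109 CPM and its knockout libraries 20768 and 30076 CPM, a log2 difference of 0.44 (SE 0.17, edgeR adjusted p = 0.679). For let-7j the values were 960, 890 and 682 CPM against 898 and 1527 CPM (0.52 (SE 0.20, edgeR adjusted p = 0.679)), and for let-7i-5p 6295, 6069 and 4824 CPM against 6073 and 9340 CPM (0.43 (SE 0.18, edgeR adjusted p = 0.715)). In each of the 3, knockout 3 was the highest library and knockout 2 lay near the wild type libraries. They were the 3 members of 10 at an unadjusted p under 0.05 in the hippocampus.

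Of the 10 members, 6 did not overlap between genotypes in the hippocampus (3 libraries against 2), all higher in knockout, where 16.9% of all tested miRNAs did not overlap. In the other 3 regions every member overlapped (7.03%, 7.62% and 6.43% of all miRNAs did not, in cerebellum, cortex and olfactory bulb). Without hippocampus knockout 3 the members' differences in the hippocampus ran from 0.04 to 0.15, with 0 at an unadjusted p under 0.05, and without knockout 2 from 0.03 to 0.86, with 4. Without wild type 3, which had the lowest family level in the region, they ran from -0.06 to 0.39, with 0. The family's summed difference was 0.14 without knockout 3, 0.45 without knockout 2 and 0.20 without wild type 3.

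Hippocampus knockout 3 also differed in the makeup of the family. In it let-7f-5p took 39.2% of the family, let-7i-5p 12.2% and let-7j 1.99%, against 33.7%, 9.86% and 1.46% in knockout 2 and at most 33.8%, 10.5% and 1.60% in the 3 wild type libraries. The family held 9.38% of its reads, the highest of the 23 libraries. Choroid plexus and ciliated epithelium miRNAs (9 of 9 listed detected) summed to 10644, 3082 and 13411 CPM in wild type hippocampus 1 to 3 and to 3302 and 3573 CPM in knockout, and their part in the difference was not tested. The neuronal list summed to 93360 to 115696 CPM in wild type and to 117048 and 118936 CPM in knockout, which do not overlap.

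**Figure D5:**
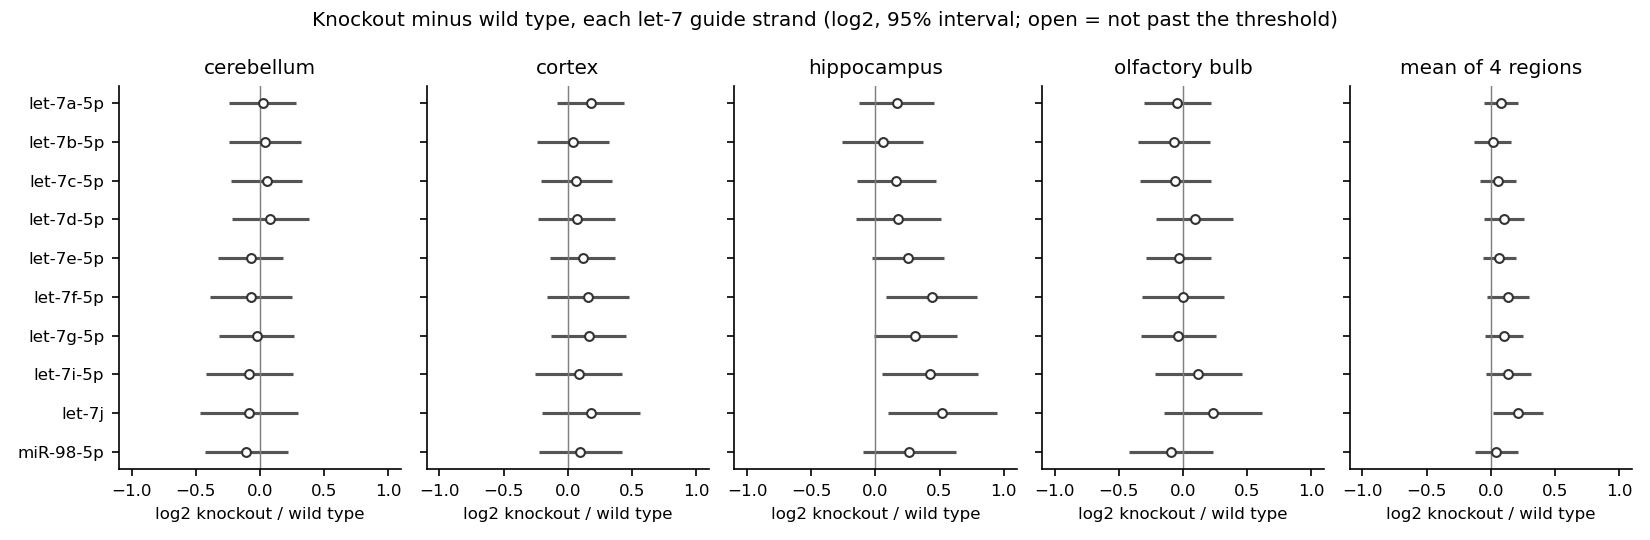
Log2 difference, knockout minus wild type, of each let-7 guide strand in each region and in the mean of the 4 regions, with 95% intervals from edgeR (n = 3 against 3 libraries, 2 against 3 in hippocampus). In hippocampus the 10 members lie above 0, at 0.06 to 0.52, and 0 of 50 tests passed the adjusted threshold.

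The miRNAs made from the same clusters, miR-99a-5p, miR-99b-5p, miR-100-5p, miR-125a-5p and miR-125b-5p, were not called with genotype either. Of the 5, 0 passed in any region or in the mean by edgeR, and their mean differences were 0.01, 0.11, 0.11, 0.07 and 0.03. Between wild type regions, the neighbours of let-7e, miR-125a-5p and miR-99b-5p, were higher in cerebellum than in cortex, by 1.32 (SE 0.15, edgeR adjusted p = 1.42e-07) and 1.002 (SE 0.26, edgeR adjusted p = 0.00217) on the TMM scale. The neighbour miR-125b-5p of let-7a-2 and let-7c-1 was lower there (-0.38 (SE 0.15, edgeR adjusted p = 0.0328)), and let-7c-5p and let-7a-5p were higher (0.90 and 1.01, both past the threshold). For miR-99a-5p and miR-100-5p the differences were -0.16 and -0.19, and neither passed. Relative to the family's summed count, miR-99b-5p had 0.30 (SE 0.28, edgeR adjusted p = 0.365) and was no longer called, while miR-125a-5p had 0.58 (SE 0.19, edgeR adjusted p = 0.0117). On that scale miR-125b-5p had -1.11 (SE 0.19, edgeR adjusted p = 3.14e-05), miR-99a-5p -0.90 (SE 0.15, edgeR adjusted p = 2.95e-05) and miR-100-5p -0.89 (SE 0.30, edgeR adjusted p = 0.0136). The median of all tested miRNAs was itself -0.71 on that scale, and 62.0% passed, so lower values there are not particular to these neighbours.

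The sum of the 12 passenger arms left out let-7c-2-3p, whose counts repeat those of let-7a-1-3p, and was 1716 to 13229 counts. Per passenger read in that sum, 58.5 to 120 guide reads were found. The guide reads include let-7j, which has no passenger arm among the 12. The wild type ratio was 69.1 ± 6.69 for cerebellum, 97.04 ± 16.4 for cortex, 72.8 ± 12.4 for hippocampus and 86.98 ± 15.02 for olfactory bulb (SD, n = 3 each). Cerebellum and cortex libraries did not overlap. In knockout it was 66.2 ± 2.81, 102 ± 22.3, 93.4 ± 22.5 (n = 2) and 84.4 ± 4.40 in the same order. Of the 12 arms, 0 passed in a knockout comparison by edgeR, and 10 of the 12 names were higher in wild type cerebellum than in cortex on the TMM scale, where 31.1% of all tested miRNAs were higher. The arms let-7a-1-3p and let-7c-2-3p, named after their values were seen, had equal counts in 23 of 23 libraries (210 to 2824 counts), and their mature sequence is identical, so that the count of 10 holds 1 sequence under 2 names.
let-7a-1-3p and let-7c-2-3p: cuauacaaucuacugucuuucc
How reads were assigned to these 2 names is not given in the sources used here.

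Outside the family, the 5 miRNAs whose level followed the family's sum most closely over the 23 libraries were miR-532-5p, miR-181c-3p, miR-140-3p, miR-340-3p and miR-21a-5p. The SD of their log2 CPM minus the log2 of the family's summed CPM was 0.17, 0.17, 0.17, 0.20 and 0.21. They were less abundant, from 24.1 CPM (miR-340-3p) to 2457 CPM (miR-21a-5p) in a library. Beyond the family the seed of let-7a-5p is shared by let-7k and miR-1961 in the RefSeq table of 1679 mature miRNAs, and the seed of let-7j by miR-202-3p. For let-7k 0 to 10 counts were found in a library.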

How the data were processed

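Small RNA of 23 mouse brain libraries was sequenced, and per the labels' protocols the libraries were made from TRIZOL-extracted total RNA (TruSeq Small RNA). The authors deposited, for each library, a table of unnormalised counts of reads by mature miRNA name. The submitters' processing notes name mm9. Not given in the sources used here are the aligner, the mismatches allowed and how a read that matches several members was counted. Groups came from the labels. From the counts, TMM factors, the low-count filter (filterByExpr, minimum count 10, minimum total 15, 669 of 1915 miRNAs kept) and quasi-likelihood fits over 8 groups were computed in edgeR 4.0.16 (R 4.3.3), with Benjamini-Hochberg adjustment over the 669 and a threshold of 0.05. Family-relative fits used the summed count of the 10 members as library size and were added after seeing the data. DESeq2 1.42.0, limma 3.58.1, other scalings, no filter, a replicate block and leaving out each library were alternatives. The procedure was tested on simulated data. All 10 members are named, and the members and lists were chosen with earlier results of these data known. Depth was 2328929 to 13070794 counts, which gives 95% Wilson intervals of at most 0.0364 percentage points of all reads. Replicates differed by more than sampling noise (chi-square per degree of freedom 28.6 to 262 over 22 pairs of libraries). Same-numbered wild type and knockout libraries deviated together (correlation over 0.1) in 3 of 3 cerebellum, 2 of 3 cortex, 0 of 2 hippocampus and 1 of 3 olfactory bulb pairs. Differently numbered pairs did so in 1 of 6, 0 of 6, 2 of 4 and 1 of 6, in the same order. Between regions the same-numbered pairs did in 6 of 18 for wild type and 7 of 15 for knockout. Differently numbered ones did in 7 of 36 and 0 of 30. The numbers may pair the genotypes in cerebellum and cortex, and the knockout libraries between regions, which these counts cannot settle. The pairs are not independent of each other. Knockout hippocampus has 2 libraries, whose correlations mirror each other (-0.23 and 0.23 with wild type hippocampus 1). A block on the numbers was an alternative fit.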

Additional observations from a re-analysis of the deposited data

How the results depend on the processing

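Both the scaling and the low-count filter moved results. With library size only, region calls of single members reversed on the log2 scale. In wild type they became, for cerebellum against cortex, -0.29 (let-7e-5p), -0.21 (let-7f-5p) and -0.11 (let-7i-5p), and against hippocampus -0.24 (let-7b-5p), -0.33 (let-7c-5p), -0.091 (let-7e-5p) and -0.092 (let-7i-5p). For cortex against olfactory bulb they became 0.21 (let-7a-5p), 0.55 (let-7d-5p), 0.49 (let-7f-5p) and 0.38 (let-7g-5p), and for hippocampus against olfactory bulb 0.094 (let-7a-5p), 0.32 (let-7b-5p), 0.52 (let-7c-5p), 0.54 (let-7e-5p), 0.27 (let-7f-5p) and 0.26 (let-7g-5p). In knockout they became -0.20 (let-7i-5p) and -0.16 (let-7j) for cerebellum against cortex, -0.11 (let-7b-5p) against hippocampus, 0.42 (let-7a-5p), 0.093 (let-7c-5p) and 0.51 (let-7d-5p) for cortex against olfactory bulb, and 0.23 (let-7a-5p) and 0.36 (let-7b-5p) for hippocampus against olfactory bulb. The knockout region calls then numbered 41 in place of 24, and the cause was not tested. Without the low-count filter 29 of the 37 wild type region calls and 19 of the 24 knockout ones passed, and 13 values of single members lost their call. The family-relative calls then fell to 14 (wild type) and 12 (knockout), the cause was not tested, and the mean knockout difference of let-7b-5p became -0.0044. Under all settings but library size only, with all libraries and the fit without the filter included, 400 of 426 values for single members kept their direction and call.

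Leaving out each library in turn gave 0 to 0 knockout calls, 33 to 37 wild type and 21 to 27 knockout region calls, 0 to 0 calls of a genotype effect across regions, and a family difference of 0.06 (without hippocampus knockout 3) to 0.14 (without hippocampus knockout 2). The mean knockout difference of let-7b-5p ran from -0.015 to 0.042. Family-relative calls were 0 to 0 for knockout, 24 to 29 for wild type regions and 21 to 27 for knockout regions. With the replicate block, 0 knockout calls, 38 and 25 region calls and 0 genotype effects across regions passed, and the family difference was 0.11. The block changed no call among 71 values of single members. Members of few reads have the widest counting error, and 2 libraries limit knockout hippocampus.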
